A study of Mus musculus with 18 samples.

Results

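The genes described here are 38 genes of glucose metabolism: glucose carriers, the enzymes of glycolysis and of lactate formation, the enzymes of glucose production, and the enzymes of glycogen synthesis and breakdown. They are defined by a list of gene symbols, with no threshold on their values, and all 38 were found among the 35551 mouse gene identifiers measured. The expression data are poly(A) RNA sequencing of AML12, a line of mouse hepatocytes that is not transformed, grown in culture with synchronized clocks. Cells received pemafibrate (labelled Pema, an agonist of the nuclear receptor PPARα, with no dose in the labels) or DMSO, the vehicle, over 1 of 3 windows counted in hours: T0 to T24, which is a 24 h reference exposure; T14 to T20, a 6 h exposure in a day-like phase; and T24 to T30, a 6 h exposure in a night-like phase. Each of the 6 groups held 3 libraries, numbered 1 to 3. The line comes from mice with a transgene for transforming growth factor alpha, which all groups share, and the labels give no other genetic change. The labels do not say whether the numbers stand for separate cultures, so p-values speak only for the scatter among these libraries, part or all of which may be technical. All cells are of 1 line, and RNA per cell and number of cells cannot be told apart in bulk samples.

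Glucose enters a cell through carriers of the SLC2A family and is trapped by hexokinases as glucose 6-phosphate. Glycolysis splits it and passes it, through the phosphofructokinase step and the steps of glyceraldehyde 3-phosphate dehydrogenase and pyruvate kinase, to pyruvate, which lactate dehydrogenase can turn into lactate. Gluconeogenesis runs the path backwards with steps of its own, catalysed by pyruvate carboxylase, phosphoenolpyruvate carboxykinase, fructose 1,6-bisphosphatase and glucose 6-phosphatase, and lets the liver release glucose during fasting. Glycogen synthase and the branching enzyme store glucose, and glycogen phosphorylase releases it. Many steps have a form that is typical of adult liver and another form that is typical of muscle, brain or growing cells. PPARα is known as the fasting sensor of the liver and acts chiefly on fatty acid oxidation.

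Values are the authors' normalized estimated counts, in 1 table per window. The libraries added up to 31461977 to 33884634 normalized counts, and the depth before normalization is unknown. The minimum for testing, a mean of at least 10, was passed by 13258 genes over the 18 libraries and by 32 of the 38 members. Of 7 PPARα target genes listed as a check, 7 rose with pemafibrate over the windows, by 0.31 to 1.26 in log2. They were chosen with earlier results of these data known, so their rise is not an independent check of the response. In single windows, 5 of them were called at a limma adjusted p under 0.05 for T0 to T24, 2 for T14 to T20 and 2 for T24 to T30. Hepatocyte markers summed to 176396 to 221231 per library over 16 genes. Krt8 at 48221 to 83449, Krt18 at 38739 to 61474 and Trf at 37979 to 61144 were large parts of that sum. Alb was at 3124 to 7190 (normalized count), but the mature hepatocyte markers Cps1 and Asgr1 were at or below 3.03 and 2.11 everywhere. Apoa1 at 2.96 to 15.8 and Fgb at 11.1 to 50.4 were low too. Cholangiocyte and progenitor markers summed to 55501 to 82779 over 7 genes. They were highest in replicate 2, at 76180 to 82779, against 58802 to 66544 in replicate 1 and 55501 to 59615 in replicate 3. The 8 macrophage markers summed to 214 to 373 with Adgre1 and Clec4f at 0, the 6 endothelial markers to 26.5 to 69.9 and the 10 stellate cell and fibroblast markers to 112 to 233.

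The promoters of 5 members are shown because these genes carry the comparisons that follow. Slc2a1, Fbp2 and Pcx had the smallest p-values for pemafibrate over the 3 windows, and Pgk1 and Ldha were among the members with the largest differences between replicate numbers. Each stretch is the 250 bases before a start site listed by RefSeq (GRCm38.p6), written 5′ to 3′ on the gene's own strand, with capitals for ACGTG or GCGTG read on either strand, the core to which hypoxia-inducible factors bind. Copies of ACGTG on opposite strands that overlap read as CACGTG, the E-box read by the carbohydrate-responsive factor Mlxipl, by Myc and by the clock proteins.
Slc2a1, chr4:119108495-119108744, plus strand: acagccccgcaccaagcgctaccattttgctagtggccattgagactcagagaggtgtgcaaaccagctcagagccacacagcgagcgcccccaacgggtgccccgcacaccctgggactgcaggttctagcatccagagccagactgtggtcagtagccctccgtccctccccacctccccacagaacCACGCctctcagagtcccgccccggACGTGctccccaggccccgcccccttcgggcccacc
Fbp2, chr13:62858401-62858650, minus strand: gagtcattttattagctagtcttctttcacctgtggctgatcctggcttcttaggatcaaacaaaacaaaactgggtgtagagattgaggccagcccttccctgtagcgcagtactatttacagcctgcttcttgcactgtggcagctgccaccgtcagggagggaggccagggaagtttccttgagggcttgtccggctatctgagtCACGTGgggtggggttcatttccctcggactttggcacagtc
Pcx, chr19:4510222-4510471, plus strand: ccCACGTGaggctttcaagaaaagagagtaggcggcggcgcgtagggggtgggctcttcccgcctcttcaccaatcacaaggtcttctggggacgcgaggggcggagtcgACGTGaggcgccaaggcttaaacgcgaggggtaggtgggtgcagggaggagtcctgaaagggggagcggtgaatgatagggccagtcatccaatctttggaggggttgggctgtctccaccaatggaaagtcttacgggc
Pgk1, chrX:106186850-106187099, plus strand: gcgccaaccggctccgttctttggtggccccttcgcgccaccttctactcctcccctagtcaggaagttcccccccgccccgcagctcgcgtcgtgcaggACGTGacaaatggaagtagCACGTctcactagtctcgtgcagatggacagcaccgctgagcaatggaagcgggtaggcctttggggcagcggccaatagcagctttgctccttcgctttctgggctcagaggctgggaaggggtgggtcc
Ldha, chr7:46845554-46845803, plus strand: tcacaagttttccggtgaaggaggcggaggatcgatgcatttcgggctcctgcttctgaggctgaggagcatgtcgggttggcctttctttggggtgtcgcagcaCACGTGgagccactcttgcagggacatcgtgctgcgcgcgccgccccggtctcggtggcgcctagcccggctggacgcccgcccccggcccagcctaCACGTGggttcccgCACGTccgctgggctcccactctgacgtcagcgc
All 5 windows held ACGTG, and those of Fbp2, Pcx and Ldha held CACGTG. They do not stand for all members, since ACGTG was in 35.1% of the members' windows and in 16.6% of all. Hk2, Slc2a2, Pfkfb4, Gapdh and Pkm differed more between replicate numbers than Pgk1 and Ldha and are not shown. The Hk2 window and the second Pkm window held ACGTG, and the first Pkm window and those of Slc2a2, Pfkfb4 and Gapdh did not. RefSeq lists a second start for Pcx and for Ldha, and neither of those windows held ACGTG or CACGTG. Promoters were listed for 37 members, 57 windows in all, of which 37 (64.9%) held ACGTG or GCGTG, against 38.6% of all 32851 promoter windows of that length. CACGTG was in 12.3% of the members' windows and in 6.02% of all. The direct repeat AGGTCANAGGTCA, the form of element to which PPARα binds, was in 0 of the 57 windows and in 0.0335% of all. A match of letters is a description and not a bound site.

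In their levels, the members divided into 9 abundant enzymes of the common path and a long tail of regulated or tissue-restricted forms (plot of levels per kilobase). Levels between genes are compared per kilobase of transcript. Aldoa (aldolase A) averaged 20278, Pkm (pyruvate kinase M) 20178 and Gapdh 19552 normalized counts per kb over the 18 libraries. Pgk1 (phosphoglycerate kinase) followed at 10613 per kb, Ldha (lactate dehydrogenase A) at 10594, Pgam1 (phosphoglycerate mutase) at 10426, Tpi1 (triosephosphate isomerase) at 8007, Gpi1 (glucose 6-phosphate isomerase) at 7231 and Eno1 (enolase 1) at 6729.8. The next member was Pfkl, the liver form of phosphofructokinase, at 914 per kb, so that these 9 stood apart from all others. Among them the order depended on the length used. With the length of all exons, Pgam1 at 9337 per kb came before Gapdh at 6718, and Aldoa at 10525 and Pkm at 9813 stayed in front. Gapdh, Ldha, Eno1, Pgam1, Tpi1, Pgk1 and Aldoa have processed pseudogenes or near copies, and how reads were divided between the copies is uncertain.

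At most steps a single form made up nearly all of the signal per kilobase, and it was often not the one typical of adult liver. Hk1, the hexokinase of most tissues, made up 96.2% of the Hk1 and Hk2 signal (median of 18 libraries, range 93.9% to 98.7%). Slc2a1 (GLUT1), the carrier of growing cells, made up 81.9% of the signal of Slc2a1 and Slc2a2 (GLUT2, the liver carrier), with a range of 76.1% to 88.6%. Pkm made up 96.2% of pyruvate kinase, and Pklr, the liver and red cell form, 3.78%. Pygb, the brain form of glycogen phosphorylase, had a median share of 100% of the Pygb and Pygl signal, and the liver form Pygl was at 0 in 17 of 18 libraries with a highest value of 1.01. Pygm, the muscle form and not a member, was at 20.9 to 74.7 (normalized count). Gys1, the muscle form of glycogen synthase, had a median share of 100% of Gys1 and Gys2, and the liver form Gys2 was at 0 in 17 libraries and at 0.996 in the other.

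The enzymes that are particular to glucose release showed the same split. Pck2, the mitochondrial phosphoenolpyruvate carboxykinase, stood at 2239.7 to 2874, and Pck1, the cytosolic form, at 0 in 15 of 18 libraries with a highest value of 1.57. G6pc3, the glucose 6-phosphatase of all tissues, made up 99.9% of its pair, and G6pc, the liver form, reached at most 6.97 with 4 libraries at 0. Fbp1, the liver fructose 1,6-bisphosphatase, reached at most 4.48 with 4 libraries at 0, and Fbp2, the muscle form, was low too, at 12.1 to 50.4. Ldhb, the heart form of lactate dehydrogenase, was at 0 in 16 libraries and at most 1.99 in the other 2. These 6 members, Pygl, Gys2, Pck1, G6pc, Fbp1 and Ldhb, did not pass the minimum and were not tested. Their values were too low to show a difference between groups, and with these normalized values no limit on their counts can be given.

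Forms were shared more evenly among the phosphofructokinases and the PFKFB enzymes. Pfkl made up 51.6% of the phosphofructokinase signal, the muscle form Pfkm 39.5% and the platelet form Pfkp 9.41%, and with the length of all exons the order of the first 2 turned, to 43.9% for Pfkl and 51.9% for Pfkm. Of the 4 PFKFB enzymes, which make and break fructose 2,6-bisphosphate, the activator of phosphofructokinase, Pfkfb2 made up 43.7%, Pfkfb3 38.4%, the liver form Pfkfb1 12.9% and Pfkfb4 3.51%. Pfkfb2 and Pfkfb3 overlapped in range, at 38.9% to 46.9% and 33.7% to 44.2%. Among the enolases a single form again made up most of the signal, with Eno1 at 94.2%, the muscle form Eno3 at 5.35% and the neuronal form Eno2 at 0.442%. Aldoc, the brain aldolase, was at 16.1 to 34.9 normalized counts, with a median of 0.0441% of the Aldoa and Aldoc signal.

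Pemafibrate changed none of the 32 tested members past the threshold (limma paired by replicate number, Benjamini-Hochberg adjusted p under 0.05). The count was 0 for T0 to T24, where 0.0525% of all genes tested were called in either direction, 0 for T14 to T20 (0.0379% of all genes), 0 for T24 to T30 (0.0378%) and 0 for the effect common to the windows (0.189%). At an unadjusted p under 0.05, 1 member was higher and 3 were lower for T0 to T24, 2 were higher and 1 lower for T14 to T20, 2 higher and 1 lower for T24 to T30, and 1 higher and 3 lower over the windows. Of all genes tested, 5.17%, 8.14%, 7.51% and 6.45% were under that p in either direction. The median log2 difference of the members was -0.02 for T0 to T24, -0.01 for T14 to T20, -0.01 for T24 to T30 and -0.01 over the windows, and that of all genes was -0.0027, -0.0023, -0.00082 and -0.0025. Of the 32 members, 7 were on the higher side for T0 to T24, 14 for T14 to T20, 14 for T24 to T30 and 13 over the windows, and of all genes 48.3%, 48.7%, 49.6% and 47.6% were.

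**Figure D1:**
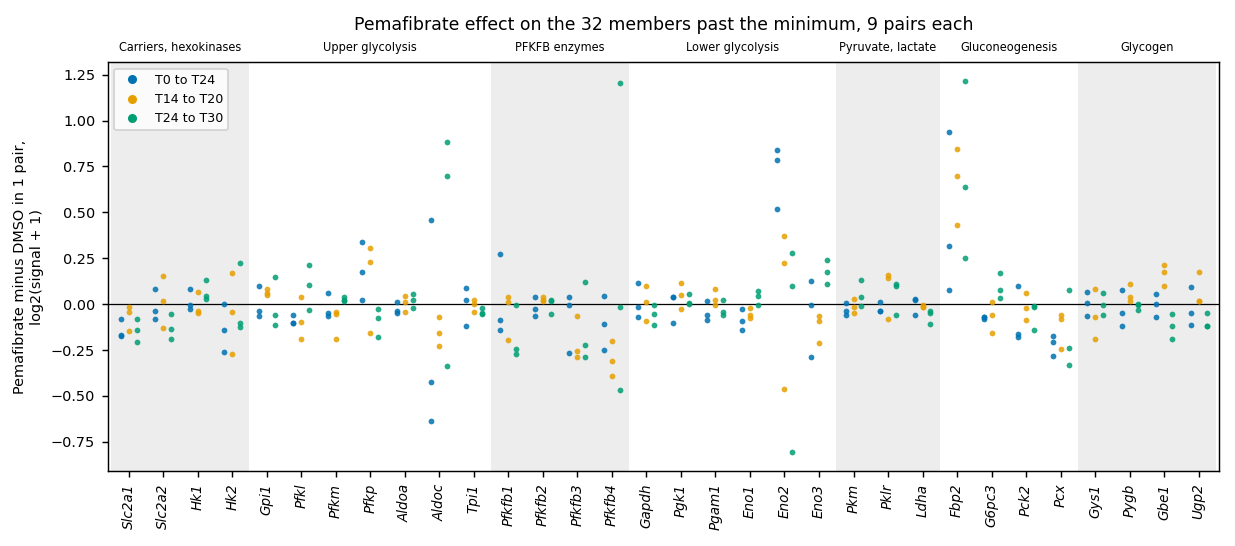
Log2 difference between pemafibrate and DMSO for each tested member in the 9 pairs of a window and a replicate number, coloured by window. Slc2a1 has all 9 pairs below 0 and Fbp2 all 9 above 0, and the pairs of the abundant enzymes lie close to 0.

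Among the genes of glucose entry, Slc2a1 was lower with pemafibrate in every pair. Slc2a1 (identifier ENSMUSG00000028645) was at 1731, 1790.0 and 2393 with DMSO against 1538, 1691 and 2119.6 with pemafibrate for T0 to T24, in the order of replicates 1 to 3. For T14 to T20 it was at 1889, 1524 and 2048 with DMSO against 1704, 1477 and 2027 with pemafibrate, and for T24 to T30 at 1997, 1539 and 1785 with DMSO against 1813, 1335 and 1686 with pemafibrate. Each library with pemafibrate was below its partner, although the ranges of the groups overlapped in every window, and replicate 3, or replicate 1 for T24 to T30, was high with both treatments. The difference common to the windows was -0.12 ± 0.03 in log2 (95% interval -0.17 to -0.06, unadjusted p 4.0e-04), which did not pass after adjustment over all genes (limma adjusted p 0.13). Of all tested genes 0.302% were lower in 9 of 9 pairs, and Slc2a1 was 1 member of the 32 among them. Pairs of the same number may share a culture, so the 9 pairs may not be independent. With the windows averaged within each number, the Slc2a1 difference had a limma adjusted p of 0.36. The carrier Slc2a2 differed by -0.04 ± 0.04, Hk1 by 0.03 ± 0.02 and Hk2, the insulin-responsive hexokinase, by -0.06 ± 0.07.

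For the enzymes from Gpi1 to Tpi1, no difference over the windows was larger than 0.07 in log2 (Pfkp, standard error 0.06). Gpi1 was among the 3 members of smallest p for T14 to T20, with 19229, 23487 and 21100.0 with DMSO against 19923, 24829.7 and 22017 with pemafibrate, a difference of 0.06 ± 0.03 (limma adjusted p 0.58). Each replicate was higher with pemafibrate there, by less than the differences between replicates. Pfkl was at 3419, 3312 and 3159.8 with DMSO against 3190.1, 3176 and 2946 with pemafibrate for T0 to T24 and at 3177, 3567 and 3678 with DMSO against 3107, 4143 and 3953 with pemafibrate for T24 to T30. Its differences were -0.09 ± 0.04 and 0.10 ± 0.05, and for T14 to T20, with 3625, 3469.9 and 3469 with DMSO against 3177, 3244 and 3558 with pemafibrate, -0.08 ± 0.05. Aldoa differed by 0.00 ± 0.02 over the windows with a 95% interval of -0.03 to 0.04, and Tpi1 by -0.02 ± 0.02 (-0.06 to 0.03).

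The bifunctional enzymes that set fructose 2,6-bisphosphate had a median of -0.06 in log2 over the windows, with none past the threshold. Pfkfb3, the form with the highest kinase to phosphatase ratio, was at 805, 965 and 1154 with DMSO against 771, 808 and 946 with pemafibrate for T14 to T20, lower in each replicate, with a difference of -0.20 ± 0.06 in log2 (unadjusted p 0.013, limma adjusted p 0.53). It was at 835, 927 and 915 with DMSO against 859, 770.3 and 912 with pemafibrate for T0 to T24 and at 792, 972 and 989 with DMSO against 680.0, 796 and 1077 with pemafibrate for T24 to T30. Replicate 1 in the first of these windows and replicate 3 in the other were slightly higher with the drug, and the difference was largest in replicate 2 for T24 to T30 and T0 to T24. Over the windows the difference was -0.14 ± 0.05 (limma adjusted p 0.63), and without replicate 2 it was -0.07. Pfkfb2 differed by 0.00 ± 0.02 over the windows, with an interval of -0.05 to 0.06. Pfkfb4 ranged from 37.6 to 145, and its highest value was the third replicate with pemafibrate for T24 to T30, whose DMSO partner stood at 62.2. Pfkfb1 differed by -0.07 ± 0.07 over the windows.

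In the lower part of glycolysis the abundant enzymes were closely matched between treatments. Over the windows Gapdh differed by -0.01 ± 0.02 (-0.07 to 0.04), Pgk1 by 0.02 ± 0.02 (-0.02 to 0.06) and Pgam1 by -0.01 ± 0.02 (-0.05 to 0.03). Eno1 differed by -0.03 ± 0.02 over the windows, with 12218, 13284 and 14036 with DMSO against 11978, 12041 and 13188 with pemafibrate for T0 to T24, where its difference was -0.09 ± 0.04 (limma adjusted p 0.95). The scarce neuronal enolase Eno2 had the smallest p of the members for T0 to T24. It was at 69.6, 67.4 and 68.5 with DMSO against 121, 121 and 98.5 with pemafibrate there, so that all 3 pemafibrate libraries were above all 3 DMSO libraries, and the difference was 0.71 ± 0.15 (unadjusted p 0.0017, limma adjusted p 0.53). The short windows did not show this separation: Eno2 was at 97.8, 78.9 and 95.8 with DMSO against 114, 102 and 69.3 with pemafibrate for T14 to T20 and at 64.3, 101 and 89.9 with DMSO against 36.3, 109 and 109 with pemafibrate for T24 to T30. Eno3 was at 658, 707 and 641 with DMSO against 569, 664 and 614 with pemafibrate for T14 to T20 and at 551, 632 and 587 with DMSO against 652, 683 and 663 with pemafibrate for T24 to T30, lower in each replicate in the first and higher in each in the second. In the 24 h window Eno3 was at 485, 606 and 493 with DMSO against 483, 496 and 539 with pemafibrate, with the replicates in both directions.

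At the end of the path, Pkm differed by 0.00 ± 0.02 over the windows (-0.04 to 0.05), Pklr by 0.03 ± 0.03 (-0.03 to 0.10) and Ldha by -0.03 ± 0.02 (-0.06 to 0.01).

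Among the genes of glucose production, Fbp2 was higher with pemafibrate in every pair and Pcx lower in 8 of 9. Fbp2 (identifier ENSMUSG00000021456) was at 25.8, 32.8 and 23.4 with DMSO against 50.4, 34.7 and 29.4 with pemafibrate for T0 to T24, at 24, 19.8 and 12.1 with DMSO against 43.9, 27 and 20.2 with pemafibrate for T14 to T20 and at 19.2, 16.9 and 14.1 with DMSO against 45.8, 26.8 and 17 with pemafibrate for T24 to T30. Replicate 1 with pemafibrate was the highest library of each window, and without pemafibrate no replicate number was highest in all 3. The difference common to the windows was 0.60 ± 0.14 in log2 (95% interval 0.30 to 0.91, unadjusted p 8.7e-04, limma adjusted p 0.21), on the scale of log2(value + 1), where the added 1 shrinks differences of genes at such low levels. Without replicate 1 it was 0.40. The pairs of replicate 1 differed by 0.94, 0.85 and 1.22 in the order of the windows. Those of replicate 2 differed by 0.08, 0.43 and 0.64, and those of replicate 3 by 0.32, 0.70 and 0.25. With the windows averaged within each number, the Fbp2 difference had a limma adjusted p of 0.48. Of all tested genes 0.483% were higher in 9 of 9 pairs. The standard error of Fbp2 was larger than that of any of the abundant enzymes.

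Pcx, pyruvate carboxylase, which feeds pyruvate into oxaloacetate (identifier ENSMUSG00000024892), was at 419.7, 492 and 593 with DMSO against 373, 405 and 513 with pemafibrate for T0 to T24. It was at 357, 363 and 454 with DMSO against 302, 348 and 429 with pemafibrate for T14 to T20 and at 524, 458 and 519.5 with DMSO against 417, 388 and 547 with pemafibrate for T24 to T30, where replicate 3 was the exception with a higher value after pemafibrate. The difference over the windows was -0.17 ± 0.05 (-0.27 to -0.07, unadjusted p 0.0022, limma adjusted p 0.35). With the windows averaged within each number, the limma adjusted p of Pcx was 0.48. Pck2 was at 2874, 2540.1 and 2383 with DMSO against 2567, 2239.7 and 2556 with pemafibrate for T0 to T24, at 2529.7, 2371 and 2384 with DMSO against 2379, 2469.9 and 2351 with pemafibrate for T14 to T20 and at 2526, 2702 and 2413 with DMSO against 2292, 2679 and 2386 with pemafibrate for T24 to T30. Its difference of -0.05 ± 0.03 over the windows was within the spread of the pairs, and that of G6pc3 was -0.02 ± 0.03. The untested liver forms were low with either treatment: G6pc was at 6.92, 0 and 0 with DMSO against 0.987, 1.99 and 2.04 with pemafibrate for T0 to T24, and Fbp1 at 0.811, 4.48 and 2.49 with DMSO against 0, 1.62 and 1.66 with pemafibrate. For T24 to T30 the order of Fbp1 was the other way, at 1.01, 0 and 0 with DMSO against 3.98, 3.97 and 2.00 with pemafibrate, so that all 3 pairs were lower in the first of these windows and higher in the second. G6pc was then at 5.04, 0.992 and 1.01 with DMSO against 6.97, 2.98 and 2.00 with pemafibrate.

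**Figure D2:**
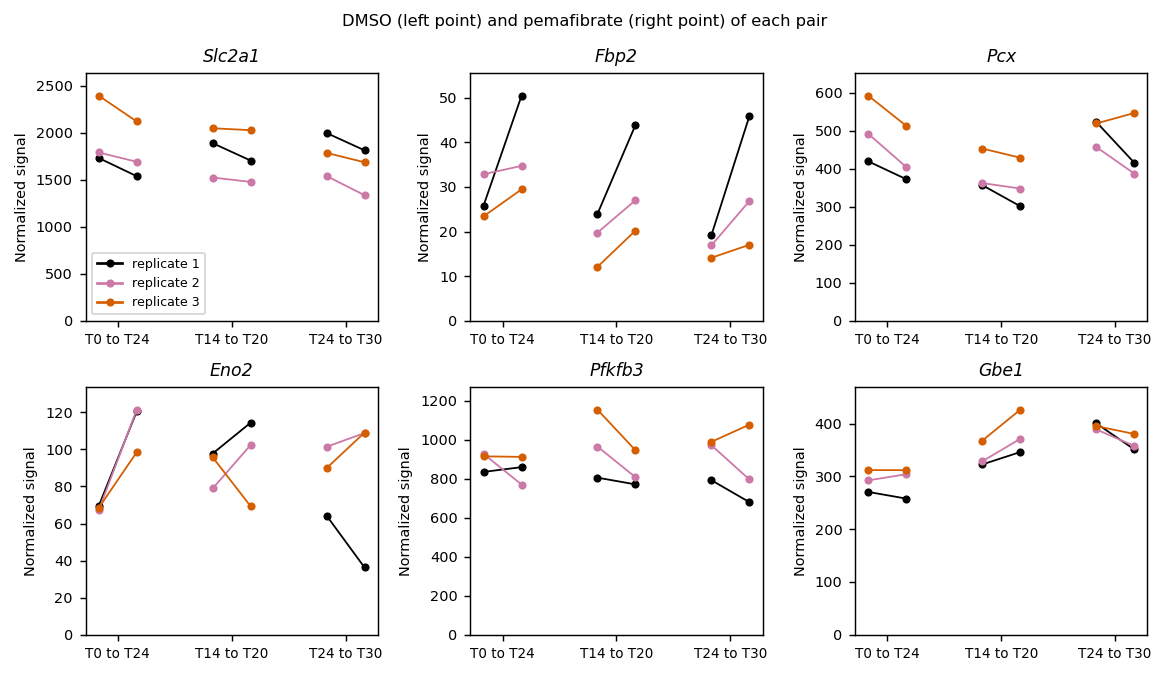
Normalized counts of Slc2a1, Fbp2, Pcx, Eno2, Pfkfb3 and Gbe1 in the 18 libraries, by window, with a line from the DMSO to the pemafibrate library of the same replicate number. The lines of Slc2a1 slope down and those of Fbp2 slope up in all 9 pairs, and those of Eno2 slope up together for T0 to T24 but not in the short windows.

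Of the glycogen genes, 4 were tested and differed by -0.02 to 0.01 over the windows. Gbe1, the branching enzyme, was at 323, 328 and 368 with DMSO against 346, 371 and 426 with pemafibrate for T14 to T20 and at 400.3, 389 and 395 with DMSO against 351, 358 and 380.3 with pemafibrate for T24 to T30. It was higher with pemafibrate in each replicate of the first window and lower in each replicate of the second. For T0 to T24, with 270.4, 292 and 312 with DMSO against 258, 304 and 312 with pemafibrate, it differed by -0.00 ± 0.08. Ugp2, which makes the UDP-glucose used for glycogen, was at 2071, 2351 and 2407 with DMSO against 2341, 2379.7 and 2439.6 with pemafibrate for T14 to T20 and at 2667, 2581 and 2593 with DMSO against 2457, 2492 and 2390.2 with pemafibrate for T24 to T30, again in opposite directions in the 2 windows. In the 24 h window Ugp2 was at 1908, 2161 and 2363 with DMSO against 2032, 2000.3 and 2288 with pemafibrate. Gys1 differed by -0.02 ± 0.03 over the windows (-0.08 to 0.04) and Pygb by 0.00 ± 0.03 (-0.05 to 0.06).

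Differences in the drug effect between windows were tested directly, and none of the 32 members passed (limma with the 9 pairs as blocks), and the share of all genes called was 0% in each of the 3 differences. At an unadjusted p under 0.05, 2 members were higher and 3 lower for T14 to T20 minus T24 to T30, 1 higher and 0 lower for T0 to T24 minus T14 to T20, and 1 higher and 3 lower for T0 to T24 minus T24 to T30. Of all genes, 9.24%, 4.93% and 7.97% were under that p in these 3 differences. There were 6 members that had all 3 pairs in opposite directions in 2 windows: Pfkm, Eno3, Gbe1 and Ugp2 between the short windows, and Pfkp and G6pc3 between T0 to T24 and T24 to T30. Of all 13258 genes tested, 10.8% had such a pattern between any 2 windows, 5.8% between the short windows and 4.09% between T0 to T24 and T24 to T30. Between T0 to T24 and T14 to T20 it was seen in 0 members and in 2.57% of all genes. For T14 to T20 minus T24 to T30, Gbe1 differed by 0.28 ± 0.09 in log2 (unadjusted p 0.012, adjusted p 0.42), Eno3 by -0.30 ± 0.11 (adjusted p 0.46) and Ugp2 by 0.17 ± 0.07 (adjusted p 0.48). For T0 to T24 minus T24 to T30, Eno1 differed by -0.12 ± 0.04 (adjusted p 0.60), Eno2 by 0.86 ± 0.30 (adjusted p 0.60) and Pfkl by -0.18 ± 0.07 (adjusted p 0.60). For T0 to T24 minus T14 to T20 the smallest p-values were those of Eno2, at 0.67 ± 0.30 (adjusted p 0.99), of Gbe1, at -0.17 ± 0.09, and of Pgam1, at -0.07 ± 0.04. These 3 comparisons share the same libraries 2 by 2 and are not independent.

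Genes around these pathways gave the same count for pemafibrate. None of the tested genes of 8 further lists passed over the windows (limma), and 9 were higher and 3 lower at an unadjusted p under 0.05 (6.45% of all genes in either direction) among their 114 genes: 10 other glucose carriers and hexose kinases, 12 other genes next to glycolysis, 6 carriers of pyruvate and lactate, 10 genes of the pentose phosphate path, 14 genes that supply gluconeogenesis, 18 other glycogen genes, 29 regulators of glucose genes and 15 other targets of hypoxia-inducible factor. Among the regulators, Ppargc1a, the coactivator of fasting genes, differed by 0.16 ± 0.05 over the windows (unadjusted p 0.0063, limma adjusted p 0.53) and Epas1 by -0.11 ± 0.04. Mlxipl, the carbohydrate-responsive factor ChREBP, differed by -0.40 ± 0.08 for T14 to T20 and by 0.40 ± 0.11 for T24 to T30, and the difference between these, -0.80 ± 0.16, had an unadjusted p of 4.3e-04 and an adjusted p of 0.25. Elsewhere the smallest p-values over the windows were those of Galk1 and Pmm1, Gpd1 and Pgp, Slc16a7 and Mpc1, Rpe and G6pdx, Mdh1 and Slc25a1, Pgm1 and Ppp1r3b, and Egln3 and Pdk1. Slc16a7, a lactate and pyruvate carrier, differed by 0.66 ± 0.26 (adjusted p 0.70) and Pdk1, which restrains pyruvate dehydrogenase, by 0.15 ± 0.07 (adjusted p 0.77). By contrast Pdk4, a kinase of the same family and a PPARα target in the check list, rose by 1.17 ± 0.11 (adjusted p 6.7e-05), Angptl4 by 0.57 ± 0.03 (adjusted p 1.4e-06), Cpt1a by 0.31 ± 0.02 (adjusted p 3.5e-06) and Creb3l3 by 1.26 ± 0.11 (adjusted p 3.4e-05). Acot1 rose by 0.73 ± 0.04, Acot2 by 0.83 ± 0.05 and Plin2 by 0.37 ± 0.02.

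Replicate numbers differed in many of the members. The libraries of 1 number formed 6 of the 18, 1 from each group, and were compared with the groups as a term in the fit. Since libraries with the same number may share a culture, these p-values measure the spread over treatments and windows, not over cultures. Of the 32 members, 25 were called in at least 1 of the 3 contrasts between numbers, a share near that of all tested genes, 72.5%. For replicate 2 minus replicate 1, 13 members were higher and 2 lower (22.7% and 22.4% of all genes). For replicate 3 minus replicate 1 these counts were 18 and 3 (26.7% and 24.8%), and for replicate 3 minus replicate 2 they were 11 and 4 (22.5% and 21.5%). All genes were called at 45.2%, 51.6% and 44% in either direction, and their calls were nearly even between the directions, whereas the members were called mostly on the higher side. Their median difference was 0.09, 0.17 and 0.07 in log2 in the 3 contrasts, and that of all genes was -0.002, 0.001 and -0.005. In 6 of 6 groups, 13 members were higher in replicate 2 than in replicate 1 (18.9% of all genes) and 3 lower (18.2%). For replicates 3 and 1 these counts were 12 (22%) and 3 (19.1%), and for replicates 3 and 2 they were 10 (21.1%) and 5 (19.9%).

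**Figure D3:**
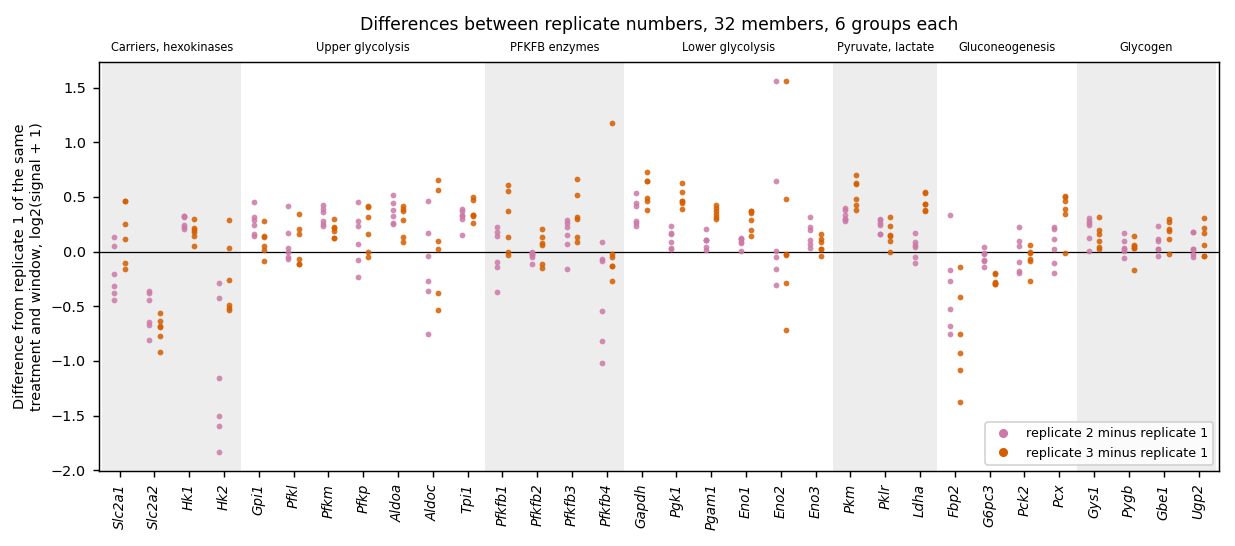
Log2 differences of the tested members in replicates 2 and 3 from replicate 1 of the same treatment and window, with 1 point for each of the 6 groups. The replicate 3 points of Gapdh, Pkm, Pgk1 and Ldha lie above 0, and those of Slc2a2 and Fbp2 lie below 0.

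The abundant enzymes of the common path were lowest in replicate 1 and, apart from Gpi1 and Aldoa, highest in replicate 3. With Pfkl, Pfkm and Pfkp counted in, these 9 enzymes took up 0.550% to 0.596% of the summed normalized counts in replicate 1. The range was 0.619% to 0.702% in replicate 2 and 0.649% to 0.791% in replicate 3. Gapdh was at 18659.6 to 24948 (median 22278) in replicate 1, 26866 to 30327 (median 28371) in replicate 2 and 27815 to 36058 (median 33698) in replicate 3, each over 6 libraries. Replicate 1 did not overlap with the others, and the contrast of replicate 3 with replicate 1 was 0.56 ± 0.05 in log2 (limma adjusted p 2.8e-07). Pkm was at 36692 to 43080.4 (median 39635) in replicate 1, 44589.7 to 53019 (median 51596) in replicate 2 and 49076 to 65055 (median 60159) in replicate 3, with a contrast of 0.54 ± 0.04 (adjusted p 5.3e-08). Pgk1 was at 14763 to 18852 (median 16478) in replicate 1, 15376 to 19750.3 (median 18779) in replicate 2 and 20345 to 24989 (median 24599) in replicate 3. Replicate 3 lay above both other numbers throughout for Pgk1, by 0.49 ± 0.03 over replicate 1 and 0.37 ± 0.03 over replicate 2. Ldha was at 14721 to 18527 (median 16616) in replicate 1, 15917 to 17912 (median 16922) in replicate 2 and 19878 to 24321 (median 23679) in replicate 3, and its contrast of replicate 3 was 0.45 ± 0.04 with replicate 1 and 0.42 ± 0.04 with replicate 2, both past the threshold, while replicate 2 and replicate 1 differed by 0.03 ± 0.04. For 5 members, Gapdh, Pgk1, Pgam1, Eno1 and Pkm, replicate 1 was lowest and replicate 3 highest in 6 of 6 groups (2.07% of all genes), and no member had the reverse order (1.78%).

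The remaining enzymes of this path differed by less. Pgam1 was at 14589.6 to 17805 (median 17390.0) in replicate 1, 15863 to 18806 (median 18033) in replicate 2 and 18797 to 23005 (median 21709) in replicate 3, with a contrast of 0.36 ± 0.03 between replicates 3 and 1. Eno1 was at 11954 to 13251 (median 12397) in replicate 1, 12041 to 13958 (median 13334) in replicate 2 and 13188 to 17103 (median 15450.2) in replicate 3, a contrast of 0.29 ± 0.03. Tpi1 was at 9982 to 11846 (median 10999) in replicate 1, 11274 to 14966 (median 14125) in replicate 2 and 11938 to 15415 (median 14658) in replicate 3. Replicates 2 and 3 overlapped for Tpi1 and differed by 0.06 ± 0.04, which did not pass, whereas both were above replicate 1, by 0.31 ± 0.04 and 0.37 ± 0.04. Aldoa was at 23614 to 28709.7 (median 26235) in replicate 1, 30874 to 36342 (median 33655) in replicate 2 and 28268 to 36218 (median 31853) in replicate 3, again with replicate 1 lowest, by 0.37 ± 0.04 against replicate 2. Gpi1 was at 17758 to 19923 (median 19285) in replicate 1, 20732 to 24829.7 (median 23394) in replicate 2 and 18239 to 22017 (median 20504) in replicate 3. Replicate 2 was the highest for Gpi1, by 0.27 ± 0.04 over replicate 1 and with replicate 3 lower than replicate 2 by 0.18 ± 0.04 (adjusted p 0.0022). Pklr was at 1904 to 2170.1 (median 1973) in replicate 1, 2172 to 2646 (median 2337) in replicate 2 and 2135 to 2376 (median 2219.8) in replicate 3, with replicate 2 above replicate 1 by 0.23 ± 0.04. Eno3 was at 483 to 658 (median 559.7) in replicate 1, 496 to 707 (median 648) in replicate 2 and 493 to 663 (median 601) in replicate 3, where the contrast of replicate 2 with replicate 1, 0.16 ± 0.05, was the one that passed.

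The genes of glucose entry differed between numbers in both directions. Slc2a2 was at 779 to 872 (median 824) in replicate 1, 496 to 643 (median 561) in replicate 2 and 451 to 559.7 (median 511) in replicate 3. Replicate 1 stood above all libraries of the other numbers, and Slc2a2 was lower by 0.71 ± 0.07 in replicate 3 and by 0.55 ± 0.07 in replicate 2 (limma adjusted p 7.9e-07 and 1.1e-05). Slc2a1 was at 1538 to 1997 (median 1772) in replicate 1, 1335 to 1790.0 (median 1531) in replicate 2 and 1686 to 2393 (median 2038) in replicate 3, and replicate 3 was above replicate 2 by 0.36 ± 0.08 (adjusted p 0.0012). The Slc2a1 share of the 2 carriers per kb averaged 78.6% in replicate 1, 82.4% in replicate 2 and 87.1% in replicate 3. Hk2 had the widest range between numbers of the members, 1.04 in log2, at 180.0 to 232 (median 187) in replicate 1, 53.5 to 148 (median 81) in replicate 2 and 124 to 221 (median 163) in replicate 3. It was lower in replicate 2 than in replicate 1 by 1.13 ± 0.16 (adjusted p 6.5e-05) and higher in replicate 3 than in replicate 2 by 0.89 ± 0.16. Hk1 was at 2340.1 to 2497 (median 2403) in replicate 1, 2756 to 3113 (median 2918) in replicate 2 and 2486 to 2967 (median 2746) in replicate 3, highest in replicate 2 where Hk2 was lowest, with 0.28 ± 0.03 over replicate 1.

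Phosphofructokinases and PFKFB enzymes gave smaller contrasts. Pfkm was at 1632 to 1866 (median 1733) in replicate 1, 1923 to 2442 (median 2215) in replicate 2 and 1923 to 2057 (median 2008) in replicate 3, with replicate 2 above replicate 1 by 0.32 ± 0.04. Pfkp was at 578 to 742 (median 644) in replicate 1, 548 to 914 (median 741) in replicate 2 and 579 to 886 (median 742) in replicate 3, higher in replicate 3 than in replicate 1 by 0.21 ± 0.08 (adjusted p 0.037). Pfkl, at 3107 to 3625 (median 3183) in replicate 1, 3176 to 4143 (median 3391) in replicate 2 and 2946 to 3953 (median 3514) in replicate 3, passed in no contrast. Pfkfb3 was at 680.0 to 859 (median 799) in replicate 1, 770.3 to 972 (median 867) in replicate 2 and 912 to 1154 (median 967) in replicate 3, and replicate 3 did not overlap with replicate 1, with a contrast of 0.34 ± 0.07. Pfkfb1 was at 94 to 139.9 (median 107) in replicate 1, 100.4 to 121 (median 108) in replicate 2 and 106 to 169 (median 129) in replicate 3, with 0.27 ± 0.11 for the same contrast (adjusted p 0.046), which turned to -0.016 in the T24 to T30 libraries alone. Pfkfb4 was at 54.6 to 88.7 (median 63.9) in replicate 1, 37.6 to 60.4 (median 52.9) in replicate 2 and 45.1 to 145 (median 66.3) in replicate 3. Its range between numbers was 0.59 in log2, yet no contrast passed, and the single library at 145 set the highest value of replicate 3. Pfkfb2, Aldoc and Eno2 passed in no contrast either.

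In glucose production, Fbp2 and G6pc3 were lower in replicate 3 and Pcx higher. Fbp2 was at 19.2 to 50.4 (median 34.8) in replicate 1, 16.9 to 34.7 (median 26.9) in replicate 2 and 12.1 to 29.4 (median 18.6) in replicate 3, and the contrast of replicate 3 with replicate 1 was -0.78 ± 0.17 (limma adjusted p 0.0016). The replicate 1 libraries with pemafibrate were its highest. G6pc3 was at 918 to 1077 (median 998) in replicate 1, 913 to 1012 (median 964) in replicate 2 and 765 to 880.0 (median 839) in replicate 3, with a contrast of -0.26 ± 0.04, and replicate 3 did not overlap with the other numbers. Pcx was at 302 to 524 (median 395) in replicate 1, 348 to 492 (median 396) in replicate 2 and 429 to 593 (median 516) in replicate 3, higher in replicate 3 than in replicate 1 by 0.36 ± 0.07 and than in replicate 2 by 0.32 ± 0.07. Pck2, at 2292 to 2874 (median 2528) in replicate 1, 2239.7 to 2702 (median 2505) in replicate 2 and 2351 to 2556 (median 2385) in replicate 3, passed in no contrast. Among the glycogen genes Gys1 was at 1633 to 2017 (median 1772) in replicate 1, 2015 to 2148 (median 2029) in replicate 2 and 1888 to 2076 (median 1969) in replicate 3, with replicate 2 above replicate 1 by 0.20 ± 0.04. Gbe1 was at 258 to 400.3 (median 334) in replicate 1, 292 to 389 (median 343) in replicate 2 and 312 to 426 (median 374) in replicate 3 and Ugp2 at 1908 to 2667 (median 2206) in replicate 1, 2000.3 to 2581 (median 2365) in replicate 2 and 2288 to 2593 (median 2399) in replicate 3, with contrasts of replicate 3 with replicate 1 of 0.18 ± 0.05 and 0.11 ± 0.04. The Ugp2 contrast had the opposite sign, -0.040, in the T24 to T30 libraries alone. Pygb passed in no contrast.

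Genes outside the list differed between the numbers as well, so that the members' differences came with wide ones elsewhere. For replicate 3 minus replicate 1 in log2 (limma), among the 12 tested genes next to glycolysis 7 were higher and 3 lower, with Bpgm at 0.56 ± 0.08 and Gpd2 at 0.39 ± 0.03. In the pentose phosphate path 5 of 10 genes were higher and 1 lower, with Pgd at 0.49 ± 0.06 and Taldo1 at 0.38 ± 0.03. Of the 15 other targets of hypoxia-inducible factor 4 were higher and 5 lower, with Ddit4 at 0.57 ± 0.04 and Vegfa at -0.61 ± 0.08. Among the 29 regulators 7 were higher and 10 lower, and the glucose-responsive genes Txnip and Mlxipl were among the lower ones, Txnip at -1.33 ± 0.11 and Mlxipl at -0.80 ± 0.11. The counts were 5 higher and 6 lower of 18 other glycogen genes, 4 and 3 of 14 genes that supply gluconeogenesis, 2 and 2 of 6 pyruvate and lactate carriers, and 1 and 2 of 10 other carriers and hexose kinases. Of the 13 tested hepatocyte markers, 3 were higher and 6 lower, with a median of -0.14. Alb averaged 6657, 3784 and 3263 in replicates 1, 2 and 3 and Apoe 867, 442 and 194, whereas Krt8 averaged 68233, 54146 and 73453 and Afp 62.1, 95.2 and 101. The part of these markers in the members' differences was not tested.

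Levels with DMSO were last set side by side by harvest time, T20, T24 and T30. Each time is in a table that was normalized on its own, and the clock time, the harvest, the length of exposure to DMSO and the table cannot be told apart, so these are descriptions with no test. At T24, 16 of the 32 members were lower than at T20 in 3 of 3 replicate numbers (23.2% of all genes) and 3 were higher (14.4%). At T30, 13 members were higher than at T24 in 3 of 3 (27.5%) and 2 lower (16.3%). Between T30 and T20, 8 were lower (15.9%) and 4 higher (21%). The median difference of the members was -0.11 in log2 for T24 minus T20, -0.02 for T30 minus T20 and 0.08 for T30 minus T24, and that of all genes was -0.02, 0.01 and 0.04.

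**Figure D4:**
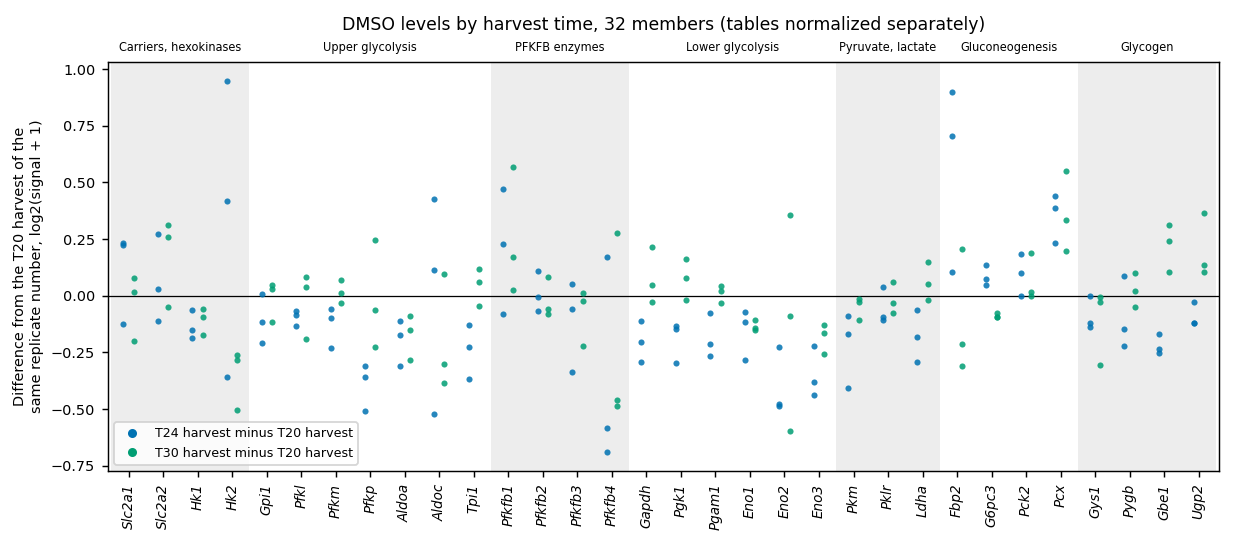
Log2 difference of the tested members between harvest times of the DMSO libraries, with 1 point per replicate number, for T24 minus T20 and T30 minus T20. Most enzymes of the common path lie below 0 for T24 minus T20, and Fbp2 lies above 0 there in each replicate number.

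The abundant enzymes made up much of this pattern. With DMSO, Gapdh stood at 21522, 29309 and 35738 at T20, 18659.6, 27114 and 29196 at T24 and 24948, 30327 and 35048 at T30, in the order of replicates 1 to 3, lower at T24 in each number. Tpi1 stood at 10905, 14329.5 and 15397 at T20, 9982, 12253 and 11938 at T24 and 11846, 14966 and 14904 at T30, with T30 above T24 by 0.29 ± 0.04 in log2 (mean and SD of the 3 numbers). Ldha stood at 16716, 17266 and 24321 at T20, 14721, 16551 and 19878 at T24 and 18527, 17912 and 23997 at T30, lower at T24 than at T20 by 0.18 ± 0.12. Pkm, Pgk1, Pgam1, Aldoa, Eno1, Eno2 and Eno3 were lower at T24 than at T20 in each number as well. Eno2 differed by -0.40 ± 0.15 and Pfkp by -0.39 ± 0.10, the latter with a return of 0.38 ± 0.22 at T30. Gbe1 was higher at T30 than at T24 by 0.44 ± 0.11 and Ugp2 by 0.29 ± 0.18.

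The 3 members that were higher at T24 than at T20 in each number (14.4% of all genes) were Pcx, Fbp2 and G6pc3. Pcx stood at 357, 363 and 454 at T20, 419.7, 492 and 593 at T24 and 524, 458 and 519.5 at T30, so that T20 was lowest in each number, by 0.35 ± 0.11 against T24 and 0.36 ± 0.18 against T30. Fbp2 stood at 24, 19.8 and 12.1 at T20, 25.8, 32.8 and 23.4 at T24 and 19.2, 16.9 and 14.1 at T30, highest at T24 in each number. It was the 1 member that differed by 0.5 or more in log2 in 1 direction, by 0.57 ± 0.41 between T24 and T20 and -0.67 ± 0.25 between T30 and T24. Over all genes 3.08% and 5.22% reached that size in these 2 comparisons, and for T30 minus T20, where 2.22% did, no member was among them. G6pc3 was also highest at T24 in each number, and differed by 0.09 ± 0.05 and -0.17 ± 0.05. Hk2 was lower at T30 than at T20 by 0.35 ± 0.13, and Slc2a1, Gpi1, Pfkl and Gys1 differed in both directions between numbers for T24 against T30.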

How the data were processed

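Poly(A) RNA was sequenced from 18 AML12 libraries, 3 in each of 6 groups, with dUTP strand marking and DNA nanoballs per the labels' protocols. The deposited signal values are counts per gene that the authors estimated and normalized, in 1 table per window per the file headers; column names end as salmon output does, and its version, the build, the annotation and the scaling method are not given in the sources read here. Whole reads could not be recovered (62.6% to 77.1% of low values were whole within 0.05), so no count test was used and the depth behind each value is unknown. Levels were never tested between tables; between windows, only the differences from DMSO were.

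Symbols were found for 35181 of 35551 identifiers. Values were tested as log2(value + 1) in genes with a mean of at least 10, with limma 3.58.1 in R 4.3.3, a variance trend, two-sided p-values, Benjamini-Hochberg adjustment over all genes and a threshold of 0.05; errors after ± are standard errors for fitted differences and SD for means of values. Pemafibrate was paired with DMSO by replicate number within a window. This pairing was checked on the data: libraries of the same window and number deviated together from their group means (correlation 0.308 to 0.622 in 9 pairs). Those of different number had correlations of -0.425 to -0.115 in 18 pairs. Deviations within a group cancel out, so negative values there follow on average from the positive ones and are no separate check. The effect common to the windows, and its differences between windows, used the 9 pairs as blocks, and contrasts of replicate numbers used the 6 groups as a term. Per-kilobase levels used GENCODE vM21 principal transcripts, and promoters came from RefSeq (GRCm38.p6). The fits were tested on simulated data.

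Each member was placed by role. Values by library, or the lowest, median and highest of larger sets, are given for members called in a comparison, for the 3 members of smallest p in each pemafibrate comparison, for a fixed set of key enzymes, for the 5 with the widest range between replicate numbers and for those differing by 0.5 or more between harvest times. The members and all gene lists were chosen with earlier results of these data known. Alternatives were other pseudocounts, filters and scalings, no variance trend, no replicate block, a shared fit, single windows or treatments, and each replicate number left out.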

Additional observations from a re-analysis of the deposited data

How the results depend on the processing

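No member passed for pemafibrate in any window, over the windows or between windows under any alternative that was run (0 of 2354 values), including the fit with no replicate block, so pairing changed no member's call. Over the windows Slc2a1 ranged from -0.10 to -0.13 in log2 (adjusted p 0.12 to 1.00), Fbp2 from 0.40 without replicate 1 to 0.71 (0.15 to 1.00) and Pcx from -0.13 to -0.22 (0.34 to 1.00). Counts over all genes called by limma were small and depended on the fit. For T0 to T24 the 7 genes became 0 with no filter on low values, 0 with no variance trend, 0 with no replicate block and 14 when all 18 libraries were fitted together, and 4 (without replicate 2) to 12 (without replicate 1) with a replicate left out. For T14 to T20 the 5 genes became 0, 0, 0 and 9 in the same order, and 2 after scaling to the library total. For T24 to T30 the 5 genes became 0, 0, 0 and 8, and 1 (without replicate 2) to 7 with a replicate left out. Over the windows the 25 genes became 2 with no replicate block, 12 with windows averaged within each number, and 12 (without replicate 2) to 17 with a replicate left out, with 14 without replicate 1. For each difference between windows the count of 0 ranged from 0 to 1. Among replicate contrasts, members called for replicate 2 minus 1 went from 15 to 8 in T0 to T24 alone, for 3 minus 1 from 21 to 12 in DMSO libraries alone, and for 3 minus 2 from 15 to 7 in T0 to T24, 9 in T24 to T30 and 6 in DMSO libraries alone; these subsets hold fewer libraries. Over all genes, 2 minus 1 went from 5988 to 3109 in T0 to T24, 3262 in T24 to T30, 2433 with DMSO and 3138 with pemafibrate; 3 minus 1 from 6837 to 2659 in T24 to T30, 3368 with DMSO and 3992 with pemafibrate; and 3 minus 2 from 5839 to 2852 in T0 to T24, 3499 in T24 to T30, 2721 with DMSO and 3323 with pemafibrate. In T24 to T30 alone, replicate 3 minus 1 reversed for Pfkfb1 (-0.016, adjusted p 0.96) and Ugp2 (-0.040, adjusted p 0.62), and the cause was not tested. Of 1050 values of members in replicate contrasts under alternatives, 919 kept their direction and side of the threshold, 105 were no longer past it, 24 were newly past it and 2 reversed. The 2 harvest differences of 0.5 or more became 1 (without replicate 3) to 5 (without replicate 1). Levels near 0, as for Pck1, Gys2 and Pygl, cannot show a difference in these values.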
